A study of Mus musculus with 60 samples.

Results

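The matrix metalloproteases and their inhibitors are described here in Balb/c 3T3 cells, a line of embryonic mouse fibroblasts, over 60 single-colour Affymetrix arrays. The family was taken as 10 genes by symbol, Mmp2, Mmp3, Mmp9, Mmp10, Mmp11, Mmp13, Mmp14, Timp1, Timp2 and Timp3, of the 18194 gene symbols on the array. The brightest probe set on average stood for each gene. Of the 10 genes, 8 were tested, because their probe set lay above the array's own median intensity on at least 3 arrays, as for 12637 genes in all. Mmp10 and Timp3 were below the median on all 60 arrays and are described without a test.

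The cells were exposed to 1 of 4 carcinogens or to the solvent dimethyl sulphoxide (DMSO, 0.75%) for 24 h or 120 h, with 3 arrays for each of 20 groups. The chemicals are named in the labels as 2-Acetylaminoflourene (AAF), benzo(a)pyrene (BaP), 2, 4-diaminotoluene (DAT) and 3-methycholanthrene (MCA). In a first set of 30 arrays, called the literature-dose set below, AAF was given at 25 µM, BaP at 0.5 µM, DAT at 50 µM and MCA at 2 µM at both times. In a second set of 30 arrays, called the IC20 set, doses were those that the study had determined as IC20 (the inhibitory concentration for 20%) at each time. BaP was given at 1.5 µM at 24 h and 0.1 µM at 120 h, and MCA at 20 µM and 0.1 µM. DAT was given at 700 µM at 24 h and 0.2 µM at 120 h, and AAF at 10 µM at both times. Each set has its own DMSO groups at both times, which all 4 chemicals of that set and time share as controls. The cells are 1 established line kept in culture without other cell types. The labels speak of triplicates but not of separate cultures. The p-values below rest on the spread of arrays within groups, pooled for each gene over the 10 groups of a set. That spread may be technical.

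Matrix metalloproteases are zinc-dependent enzymes that cut collagen, gelatin, proteoglycans and other matrix proteins, and most are secreted as inactive precursors. The stromelysins Mmp3 and Mmp10 cut many matrix proteins and can activate other precursors. Mmp13 is a collagenase, Mmp2 and Mmp9 are gelatinases, Mmp14 is anchored in the cell membrane, and Mmp11 is a stromelysin by name that is activated inside the cell by furin. The Timp proteins bind the active enzymes and block them, and Timp2 also takes part in the activation of the Mmp2 precursor by Mmp14. In fibroblasts, Mmp3 and Mmp13 are textbook genes induced by growth factors, inflammatory cytokines and tumour promoters through the transcription factor AP-1. BaP and MCA are polycyclic aromatic hydrocarbons, a class known to bind the aryl hydrocarbon receptor.

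Promoter sequences were available from RefSeq (mouse build GRCm38.p6) for 8 of the 10 genes, each from 250 bases before to 50 bases after the annotated start. Those of Mmp13, Mmp3 and Mmp10, which lie in 1 run of such genes on chromosome 9, are shown because Mmp3 and Mmp13 had the largest responses below, and that of Mmp14 is shown as a contrast of another kind. Each line gives the 120 bases before the start, 5′ to 3′. Capitals mark the AP-1 motif TGAGTCA or its reverse complement TGACTCA, the letters TATAAA, and the GC box GGGCGG.
Mmp13, chr9:7272394-7272513, plus strand: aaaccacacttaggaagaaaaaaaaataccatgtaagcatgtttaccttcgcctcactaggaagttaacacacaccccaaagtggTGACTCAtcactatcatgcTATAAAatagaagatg
Mmp3, chr9:7445702-7445821, plus strand: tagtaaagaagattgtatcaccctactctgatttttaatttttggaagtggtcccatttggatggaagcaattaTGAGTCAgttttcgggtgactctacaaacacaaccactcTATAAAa
Mmp10, chr9:7502222-7502341, plus strand: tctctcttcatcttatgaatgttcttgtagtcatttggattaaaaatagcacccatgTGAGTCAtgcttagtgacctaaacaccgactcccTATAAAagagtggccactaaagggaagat
Mmp14, chr14:54431478-54431597, plus strand: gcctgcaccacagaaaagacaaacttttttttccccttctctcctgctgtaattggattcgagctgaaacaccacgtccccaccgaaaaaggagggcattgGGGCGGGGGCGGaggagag

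The AP-1 motif, searched on both strands, was in the windows of 3 of the 8 genes, Mmp3, Mmp10 and Mmp13, against 5.2% of 32851 windows of the same length. TATAAA, searched on the gene's strand, was in the same 3 windows, against 8.32% of all windows. GGGCGG, searched on both strands, was in the windows of the other 5 genes, Mmp11, Mmp14, Timp1, Timp2 and Timp3, against 35.7% of all windows. GCGTG, the core letters of the xenobiotic response element, searched on both strands, was in the windows of Timp1, Timp2 and Timp3, against 32.4% of all windows. These are matches of letters in the window, and no binding was measured.

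The whole run of matrix metalloprotease genes on chromosome 9 holds, in RefSeq order, Mmp13, Mmp12, Mmp1b, Mmp3, Mmp1a, Mmp10, Mmp8, Mmp27, Mmp20 and Mmp7. Mmp13 was above the array median on 32 arrays and Mmp3 on 29. Mmp12, Mmp1b, Mmp1a, Mmp10, Mmp8 and Mmp20 were above it on none of the 60 arrays, Mmp7 was above it on 9, and Mmp27 had no named probe set. Mmp3 and Mmp13 passed the filter through several groups, since Mmp3 was above the median in all 3 arrays of the IC20 DMSO group at 24 h and Mmp13 in all 3 arrays of both DMSO groups at 120 h. The other 6 tested genes were above it on all 60 arrays.

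The arrays carry scaled intensities, with medians of 41.2 to 47.1 in the literature-dose set and 56.3 to 98.9 in the IC20 set, so levels were not tested across sets. In DMSO of the IC20 set the array medians were 58.8, 65.5 and 59.4 at 24 h and 98.9, 89.7 and 81.8 at 120 h. Over all tested genes the median log2 difference between these groups was 0.107 on the deposited values and -0.0534 after quantile normalization. The size of a time change in that set thus depends on the normalization. The median spread of a gene between arrays of a group was 0.114 (residual SD, log2) in the first set and 0.218 in the second. Of 10 fibroblast markers, 9 were above the median on all arrays, and the summed level of the 10 was 35700 to 38100 in DMSO at 24 h and 49500 to 53800 at 120 h in the literature-dose set. In the IC20 set the DMSO sums overlapped, at 103000 to 138000 and 130000 to 166000. By the time test below, 7 of the 10 rose and 2 fell in each set, where 57.7% and 40.2% of all tested genes passed. Of 8 macrophage markers, Ptprc, Itgam, Mpeg1 and Cx3cr1 were never above the median. Cd14 was above it on 60 arrays, Csf1r on 59, Fcgr1 on 32 and Adgre1 on 29. In DMSO of the literature-dose set the sum over the 8 was 554 to 677 at 24 h and 654 to 746 at 120 h. In DMSO of the IC20 set it was 435 to 504 and 684 to 747. Of 7 endothelial and 7 epithelial markers, 4 and 3 were never above the median and none was above it on all arrays. Of the epithelial markers, Epcam was above it on 53 arrays, Krt5 on 32, Krt8 on 13 and Cdh1 on 1. Of the endothelial markers, Esam was above it on 7 arrays, and Cldn5 and Kdr on 1 each. The epithelial sum was 263 to 331 and 378 to 422 in DMSO at the 2 times of the literature-dose set, and 164 to 266 and 385 to 411 in the IC20 set. The 3′ to 5′ ratio of the actin control probe sets (log2) was 0.30 ± 0.06 (SD, n = 3) and 0.28 ± 0.03 in DMSO at 24 h and 120 h of the literature-dose set, but 0.31 ± 0.09 and 0.53 ± 0.10 in the IC20 set. The Gapdh ratio was -0.29 ± 0.04 and -0.16 ± 0.03 in the first set and -0.35 ± 0.01 and -0.48 ± 0.13 in the second. The part of these marker sums and ratios in the time changes below was not tested.

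The first question is how the family moved with time in cells given solvent alone. Of the 8 tested genes, 5 rose and 2 fell between 24 h and 120 h in the literature-dose set, and 4 rose and 2 fell in the IC20 set. Mmp13, Mmp2, Mmp14 and Mmp11 rose in both sets, while the stromelysin gene Mmp3 and the inhibitor gene Timp1 fell in both. Mmp9 rose in the literature-dose set. These counts stand beside a broad change of the transcriptome, with 57.7% of all tested genes past the threshold in the literature-dose set (29.3% higher, 28.4% lower) and 40.2% in the IC20 set (17.8% higher, 22.4% lower). The median difference of the 8 genes was 0.993 on the log2 scale in the first set and 0.649 in the second, against 0.00171 and -0.0534 over all tested genes. Here and below, log2 differences are given with their standard error on the scale log2(intensity + 16) after quantile normalization within the set, and p-values are from limma, adjusted by Benjamini-Hochberg over all 12637 genes, with 0.05 as the threshold. Values of single arrays are the deposited intensities.

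The collagenase gene Mmp13 read 18.9, 13.6 and 13.3 in the 3 DMSO arrays at 24 h and 152.5, 150.9 and 155.8 at 120 h in the literature-dose set. All 24 h arrays were below the array median and all 120 h arrays were above it. The difference was 2.43 ± 0.17 (adjusted p = 7.31e-13), and it was 3.25 with a pseudocount of 1 and 1.45 with 64. The IC20 arrays of Mmp13 read 9.18, 26.6 and 30.6 at 24 h and 126.8, 173.1 and 141.3 at 120 h, again with no overlap, a difference of 1.76 ± 0.26 (adjusted p = 4.75e-06).

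Mmp2, the gelatinase whose precursor Mmp14 activates, read 1797, 1703 and 1663 at 24 h and 5680, 5762 and 5295 at 120 h in the literature-dose set. The groups were far apart, at 3.28-fold on the scale used (log2 difference 1.71 ± 0.09, adjusted p = 5.03e-15). Its IC20 arrays read 2767, 2152 and 2260 at 24 h and 10890, 10620 and 8832 at 120 h (2.18 ± 0.14, adjusted p = 3.84e-12). Mmp14, the membrane-anchored enzyme, moved in the same way. It read 1327, 1347 and 1264 at 24 h and 3454, 3939 and 3792 at 120 h in the literature-dose set (1.49 ± 0.10, adjusted p = 9.3e-13). The IC20 values were 4113, 2747 and 4406 at 24 h and 11700, 14980 and 13870 at 120 h (2.02 ± 0.25, adjusted p = 3.6e-07). The groups of Mmp14 overlapped in neither set.

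Mmp11 read 369.5, 279.9 and 315.7 at 24 h and 708.6, 821.7 and 780.2 at 120 h in the literature-dose set (1.23 ± 0.08, adjusted p = 1.6e-13). Its IC20 values were 825, 592 and 711 at 24 h and 1426, 1571 and 1502 at 120 h (1.02 ± 0.15, adjusted p = 3.84e-06). Every 120 h array was above every 24 h array of its set for this furin-activated enzyme. Mmp9, the other gelatinase, read 200.4, 178.2 and 251.1 at 24 h and 377.3, 348.6 and 366.6 at 120 h in the literature-dose set (0.76 ± 0.09, adjusted p = 6.15e-08). In the IC20 set its change was 0.28 ± 0.16 (adjusted p = 0.172). The deposited values were 501.9, 449.9 and 556.5 at 24 h and 632.7, 746.8 and 718.3 at 120 h, with no overlap, and the groups overlapped after quantile normalization. The difference was 0.47 with an adjusted p of 0.0178 on the deposited values without that normalization.

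Mmp3 went the other way. It read 37.4, 29.8 and 43.8 at 24 h and 6.96, 15.1 and 15.6 at 120 h in the literature-dose set, so only 1 of the 6 arrays was above its array median. The fall of -0.94 ± 0.33 (adjusted p = 0.0164) was lost with a pseudocount of 64 (adjusted p = 0.086), without the third DMSO array at 24 h (0.0606) and without the first at 120 h (0.076). The IC20 arrays of Mmp3 read 99.8, 154.1 and 128.8 at 24 h and 45, 76.2 and 58.8 at 120 h. The groups did not overlap, and the fall was -1.38 ± 0.24 (adjusted p = 5.02e-05). Before normalization the group means were 128 and 60. The array medians of these groups rose with time, so the size of the fall depends on the normalization.

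Timp1, a secreted inhibitor of most of these enzymes, read 1311, 926.5 and 1071 at 24 h and 545.2, 601.2 and 503.4 at 120 h in the literature-dose set (-0.94 ± 0.09, adjusted p = 1.65e-09). Its IC20 arrays read 2915, 2841 and 3630 at 24 h and 1281, 1493 and 1788 at 120 h (-0.97 ± 0.16, adjusted p = 2.07e-05). In both sets every 120 h array was below every 24 h array. Fewer cells making a transcript and less transcript per cell cannot be told apart in these bulk samples.

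**Figure D1:**
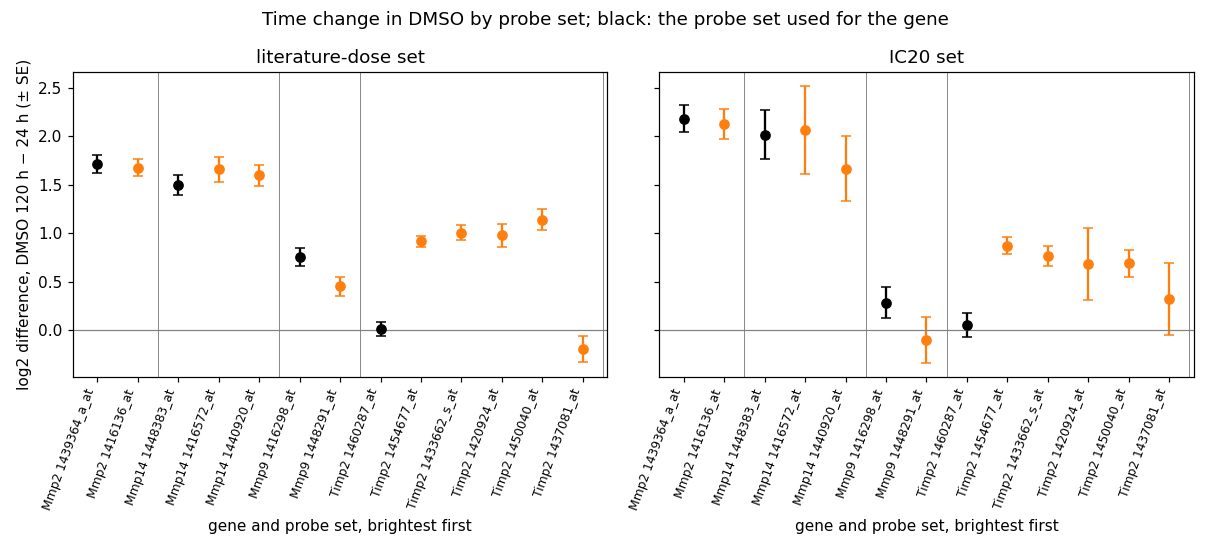
Log2 difference between DMSO at 120 h and at 24 h (vertical axis, ± SE, n = 3 arrays per group) for each probe set of the 4 tested genes with more than 1, in the literature-dose set (left) and the IC20 set (right). Black points are the probe sets that represent the genes; those of Timp2 lie at 0.01 and 0.06 while 4 of its 5 other probe sets lie between 0.68 and 1.14.

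Timp2 depended on the probe set, as the plot of time changes by probe set shows. Its representative probe set, 1460287_at, read 5741, 4718 and 4717 at 24 h and 4862, 5286 and 4767 at 120 h in the literature-dose set, with overlapping groups and a difference of 0.01 ± 0.07 (adjusted p = 0.926). The next brightest, 1454677_at, rose by 0.92 ± 0.06 (adjusted p = 1.24e-13). The probe sets 1433662_s_at, 1420924_at and 1450040_at rose by 1.01, 0.98 and 1.14, and 1437081_at was below the median on all arrays. In the IC20 set the representative gave 0.06 ± 0.12 (adjusted p = 0.76), 1454677_at rose by 0.87 and 1433662_s_at by 0.77, and 1420924_at gave 0.68 (adjusted p = 0.149). The mean over all Timp2 probe sets rose by 0.64 (adjusted p = 4.06e-09) and 0.57 (adjusted p = 0.00294) in the 2 sets. The direction of Timp2 over time was therefore not settled by these probe sets, and under median scaling of the IC20 set its representative fell by 0.58 (adjusted p = 0.0429). The other probe set of Mmp2 and those of Mmp14 gave differences like their representatives, and the other one of Mmp9 gave 0.45 in the literature-dose set and -0.10 in the IC20 set.

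At 24 h the literature doses moved only Mmp9 of the 8 genes by the representative probe sets. Mmp9 rose with AAF and fell with BaP, and no tested gene passed the threshold with DAT or MCA. Mmp9 read 319, 288.1 and 290.1 with 25 µM AAF against 200.4, 178.2 and 251.1 in DMSO, a difference of 0.48 ± 0.09 (adjusted p = 0.00867). With 0.5 µM BaP it read 137.2, 154.8 and 137.6, a difference of -0.50 ± 0.09 (adjusted p = 0.00046). Neither treated group overlapped the DMSO group. Of all tested genes, 0.91% passed with AAF, 9.42% with BaP, 0.174% with DAT and 2.22% with MCA. The AAF call on Mmp9 was lost without the first AAF array (adjusted p = 0.077) or without the first or second DMSO array (0.0672 and 0.0501), in a fit of the compared groups alone (0.125) and in a single fit of all 60 arrays (0.199). The second probe set of Mmp9 gave 0.51 (adjusted p = 0.00786) with AAF and -0.51 (0.000526) with BaP. For DAT, 1 of the 8 genes had an unadjusted limma p under 0.05, and for MCA 0 had. The share of all tested genes under that unadjusted level was not counted, here or below. With MCA, 2 of the other probe sets of Timp2 rose, 1433662_s_at by 0.32 (adjusted p = 0.0225) and 1454677_at by 0.26 (0.00845), while its representative differed by 0.15 (0.469). Mmp2 with AAF differed by 0.29 (adjusted p = 0.144), and by the same amount with an adjusted p of 0.0462 in the fit with the replicate number as a block. The share of all tested genes called in that fit was not counted, here or below. Over the 4 chemicals, the differences ran from 0.06 to 0.29 for Mmp2, from -0.42 to 0.38 for Mmp3 and from -0.25 to 0.21 for Mmp13. They ran from -0.18 to 0.24 for Mmp14, from -0.08 to 0.17 for Mmp11, from -0.03 to 0.03 for Timp1 and from -0.13 to 0.15 for Timp2.

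**Figure D2:**
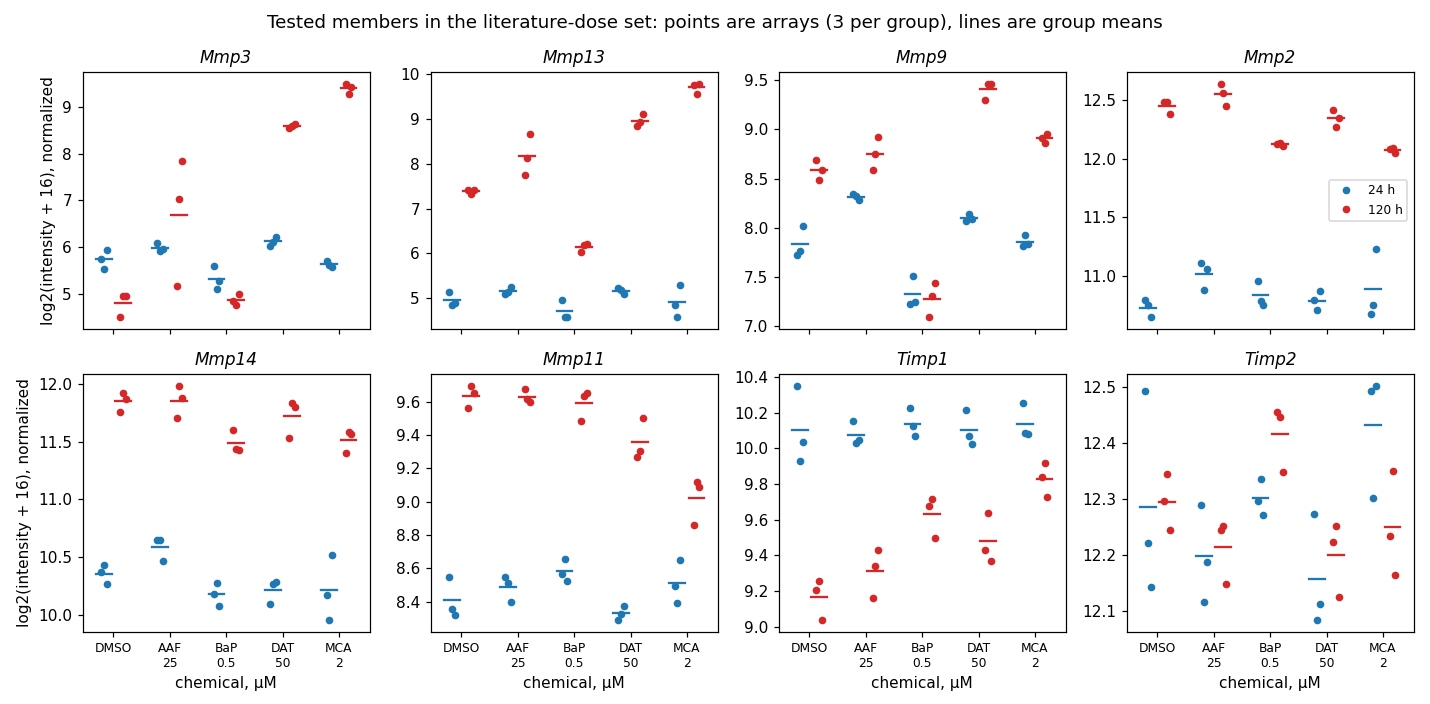
Normalized log2(intensity + 16) of the 8 tested genes on every array of the literature-dose set (points, 3 arrays per group; lines are group means) in DMSO and with each chemical at 24 h (blue) and 120 h (red). Mmp3 and Mmp13 have their highest means with 2 µM MCA and then 50 µM DAT at 120 h, and the 3 AAF arrays of Mmp3 at 120 h are widely spread.

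At 120 h the chemicals at their literature doses did not move the 8 genes alike. Mmp3 rose with AAF, DAT and MCA and did not pass with BaP, where its low DMSO level left little room for a fall. Mmp13 rose with AAF, DAT and MCA and fell with BaP. Mmp9 fell with BaP and rose with DAT and MCA. Timp1 rose with BaP, DAT and MCA, and Mmp2, Mmp14 and Mmp11 fell where they changed. Of the 8 genes, 2 passed with AAF, 5 with BaP, 5 with DAT and 7 with MCA, against 0.356%, 26.8%, 23.7% and 39.1% of all tested genes. The medians of the 8 log2 differences were 0.122, -0.186, 0.108 and 0.137, against -0.0043, -0.0136, -0.0247 and -0.0213 over all tested genes.

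**Figure D3:**
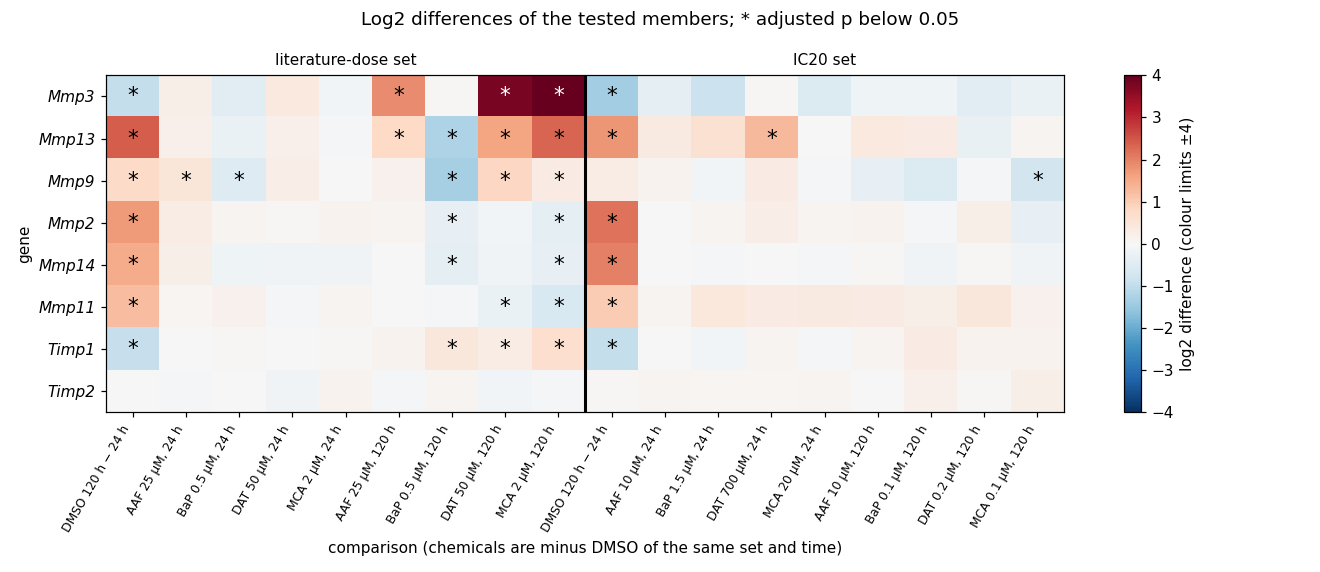
Log2 differences (colour) of the 8 tested genes in the DMSO time comparison and in each chemical against DMSO of the same set and time, 3 arrays per group; asterisks mark adjusted p below 0.05. Of the 32 gene and chemical pairs at 120 h, 19 carry an asterisk in the literature-dose set and 1 in the IC20 set.

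Mmp3 read 6.96, 15.1 and 15.6 in DMSO at 120 h, under the array median on all 3 arrays. With 50 µM DAT it read 384.2, 298.6 and 392.1, a difference of 3.79 ± 0.33 (13.9-fold on the scale used, adjusted p = 1.96e-09). With 2 µM MCA it read 678.7, 613.5 and 684.6, a difference of 4.60 ± 0.33 (24.2-fold on the scale used, adjusted p = 1.17e-11). The 3 groups did not overlap. Because the DMSO level was that low, the size rests on the pseudocount. The MCA difference was 5.73 with a pseudocount of 1 and 3.25 with 64, and the DAT difference was 4.90 and 2.51.

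With 25 µM AAF, Mmp3 read 20, 121.2 and 219.2, so the first array was near the DMSO values and the other two were far above them. The difference was 1.88 ± 0.33 (adjusted p = 0.00427), and it was lost without the second AAF array (adjusted p = 0.0569), without the third (0.062) and in a fit of the compared groups alone (0.522). The standard error is pooled over the groups of the set. At 120 h the SD of Mmp3 (log2) was 1.36 with AAF, 0.12 with MCA and 0.04 with DAT. With 0.5 µM BaP, Mmp3 read 12.5, 10.2 and 15.9, overlapping DMSO, and the difference was 0.06 (95% limits -0.61 to 0.74, adjusted p = 0.92). The DMSO arrays were already under the array median, so a fall with BaP had little room to show.

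Mmp13 read 152.5, 150.9 and 155.8 in DMSO at 120 h. With DAT it read 475.7, 384.7 and 551.8 (1.57 ± 0.17, 2.97-fold, adjusted p = 4.82e-08), and with MCA 830.7, 754.4 and 880 (2.32 ± 0.17, 4.98-fold, adjusted p = 1.13e-11). With BaP it read 54.5, 57.3 and 59.6 (-1.25 ± 0.17, adjusted p = 1.25e-06). The collagenase gene thus lay above DMSO on every DAT and MCA array and below it on every BaP array. With AAF it read 207.4, 272.5 and 401.4, above DMSO on each array (0.79 ± 0.17, adjusted p = 0.0251). This call was lost without the second AAF array (0.0919), without the third (0.362), without the second DMSO array (0.149) or the third (0.103), with a pseudocount of 1 (0.218) in a fit of the compared groups alone (0.45) and in a single fit of all 60 arrays (0.317).

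Mmp9 read 377.3, 348.6 and 366.6 in DMSO at 120 h and 133.2, 150.4 and 158.1 with BaP. The fall was -1.32 ± 0.09 (adjusted p = 1.47e-11), and the second probe set gave -1.19. With DAT it read 646.7, 585 and 701.9 (0.82 ± 0.09, adjusted p = 1.64e-07), and with MCA 437.3, 461.8 and 487.9 (0.32 ± 0.09, adjusted p = 0.00688). All DAT and MCA arrays were above all DMSO arrays of this gelatinase gene, and the MCA call was lost in a single fit of all 60 arrays (0.0744). With AAF it read 374.3, 422.3 and 477.5, which overlapped DMSO (0.16 ± 0.09, adjusted p = 0.881).

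The other gelatinase gene, Mmp2, read 5680, 5762 and 5295 in DMSO, 4388, 4368 and 4303 with BaP and 4337, 4400 and 4350 with MCA. It fell by 0.33 with BaP (adjusted p = 0.00882) and by 0.37 with MCA (adjusted p = 0.00189), with no overlap in either case. With AAF and DAT the differences were 0.10 and -0.10 (adjusted p = 0.98 and 0.48). Mmp14 read 3454, 3939 and 3792 in DMSO, 2982, 2680 and 2648 with BaP and 2700, 3109 and 3024 with MCA. It fell by 0.36 with BaP (adjusted p = 0.00868) and by 0.33 with MCA (adjusted p = 0.0107), the latter lost without the first MCA array (0.0662). In a single fit of all 60 arrays both Mmp14 calls were lost (0.292 and 0.265), as was that of Mmp2 with BaP (0.0673). The other Mmp14 probe sets, 1416572_at and 1440920_at, gave larger differences with BaP, -0.69 (adjusted p = 0.000179) and -0.61 (0.000104). With MCA they gave -0.38 (0.0209) and -0.44 (0.00187). The other probe set of Mmp2 gave -0.26 with BaP (0.0296) and -0.36 with MCA (0.00166). All these falls are smaller than the rises of the same 2 genes with time.

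The summed level of the 10 fibroblast markers in the same groups was 37700 to 41700 with BaP and 43500 to 46000 with MCA, against 49500 to 53800 in DMSO. It moved with the falls of Mmp2 and Mmp14, and its part in them was not tested. The macrophage sum was 735 to 892 with BaP, 712 to 830 with DAT and 678 to 771 with MCA, against 654 to 746 in DMSO, and its part in the rises was not tested.

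Mmp11 fell with MCA, from 708.6, 821.7 and 780.2 in DMSO to 422.4, 550.6 and 534.6 (-0.62 ± 0.08, adjusted p = 3.47e-07). With DAT it read 634.4, 516 and 723.3, where the third array overlapped DMSO before normalization (-0.28 ± 0.08, adjusted p = 0.00888). The DAT call was lost without the first DAT array (0.0526), on the deposited values (0.0617), under median scaling (0.0778) and in a single fit of all 60 arrays (0.151). With BaP and AAF the differences were -0.05 and -0.01 (adjusted p = 0.721 and 0.998).

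Timp1 read 545.2, 601.2 and 503.4 in DMSO at 120 h and 876.8, 971.9 and 843.8 with MCA (0.66 ± 0.09, adjusted p = 2.23e-06). With BaP it read 794.4, 843.5 and 692.6 (0.46 ± 0.09, adjusted p = 0.000396). All 6 of these arrays were above all DMSO arrays. With DAT it read 709, 663.9 and 659.7 (0.31 ± 0.09, adjusted p = 0.0154), a call lost without the third DMSO array (0.0974) or the second DAT array (0.11) and in a single fit of all 60 arrays (0.154). Timp2 passed with no chemical by its representative probe set (largest difference 0.12 with BaP, adjusted p = 0.25), but with BaP 1433662_s_at rose by 0.36 (adjusted p = 0.000915) and 1454677_at by 0.24 (adjusted p = 0.00203).

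**Figure D4:**
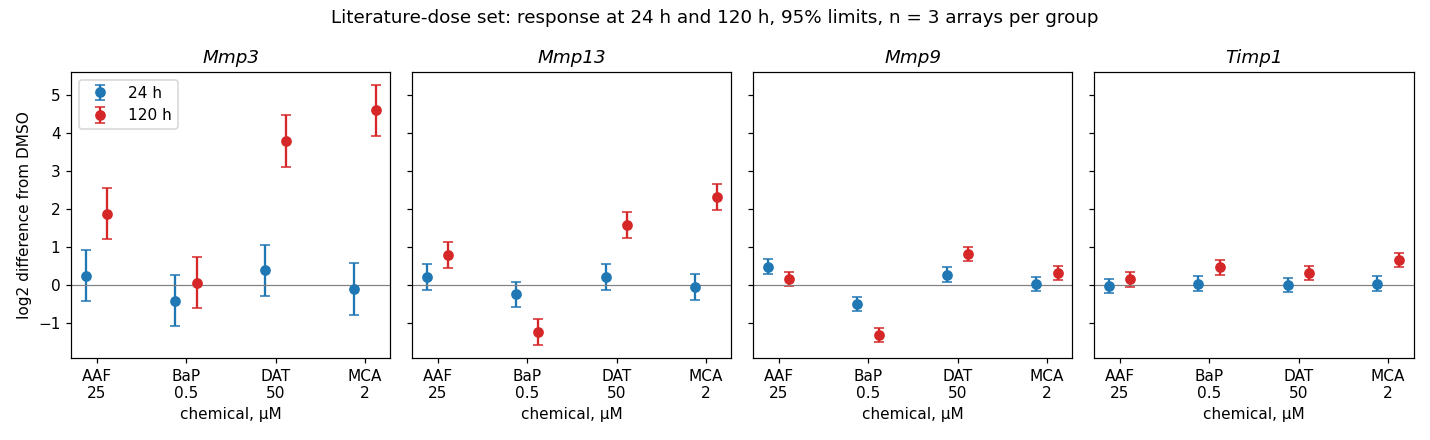
Log2 difference from DMSO at 24 h (blue) and 120 h (red) for Mmp3, Mmp13, Mmp9 and Timp1 with each chemical at its literature dose (points, with 95% limits, 3 arrays per group). The points of Mmp3 lie at 4.60 for MCA and 3.79 for DAT at 120 h, and the points of Mmp9 for BaP lie below 0 at both times. That of Mmp13 for BaP lies below 0 at 120 h. At 24 h it lies at -0.25 and did not pass limma's test (adjusted p = 0.417), with all arrays of Mmp13 below the array median.

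Whether a response differed between 120 h and 24 h at the same literature dose was tested as a difference of differences. MCA gave 5 genes past the threshold of 8, BaP 4, DAT 3 and AAF 0, against 28.2%, 8.51%, 8.21% and 0.0554% of all tested genes. The response of Mmp3 was larger at 120 h by 4.71 ± 0.47 with MCA (adjusted p = 2.28e-08) and by 3.41 ± 0.47 with DAT (adjusted p = 2.08e-05). That of Mmp13 was larger by 2.37 ± 0.23 with MCA (adjusted p = 2.27e-08) and by 1.36 ± 0.23 with DAT (adjusted p = 0.000268), and more negative with BaP by -0.997 ± 0.23 (adjusted p = 0.00578). The Mmp13 call with BaP was lost with a pseudocount of 1 (0.135) and in a single fit of all 60 arrays (0.0729). At 24 h Mmp13 was below the array median on every array of this set, so a fall had little room to show. The response of Mmp9 to BaP, negative at 24 h already, was more negative at 120 h by -0.81 ± 0.13 (adjusted p = 0.000103). Its mean with BaP was 143 at 24 h and 147 at 120 h, while the DMSO mean went from 210 to 364. The Mmp3 response to AAF differed by 1.63 ± 0.47 (adjusted p = 0.292), and by 2.38 (adjusted p = 1.99e-06) without the first AAF array at 120 h, the one that read near DMSO. For AAF, 3 of the 8 genes had an unadjusted limma p under 0.05, with no share of all tested genes counted at that level.

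BaP and MCA, both polycyclic aromatic hydrocarbons, were compared with each other at 120 h, 1 pair of chemicals in each set. In the literature-dose set the doses differ, 0.5 µM BaP against 2 µM MCA. Of the 8 genes, 3 were lower with BaP and 1 was higher, against 20.3% and 21.4% of all tested genes (41.7% in both directions). Mmp3 was lower by -4.54 ± 0.33 (adjusted p = 3.37e-11; -5.56 with a pseudocount of 1 and -3.23 with 64). Mmp13 was 11.8-fold lower on the scale used (adjusted p = 1.68e-14), its 3 BaP arrays reading 54.5 to 59.6 and its 3 MCA arrays 754.4 to 880. Mmp9 was lower by -1.64 ± 0.09 (adjusted p = 3.08e-13) and Mmp11 higher by 0.57 ± 0.08 (adjusted p = 1.27e-06). Both chemicals lowered Mmp2 and Mmp14 and raised Timp1 against DMSO. The BaP-to-MCA differences of these 3 were 0.05 (95% limits -0.14 to 0.24), -0.03 (-0.24 to 0.18) and -0.20 (-0.39 to -0.0046; adjusted p = 0.0949). With the replicate number as a block, Timp1 (-0.20, adjusted p = 0.0128) and Timp2 (0.17, adjusted p = 0.00908, against 0.0726 without it) also passed. No share of all tested genes was counted for that fit.

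In the IC20 set both chemicals were at 0.1 µM at 120 h, a matched dose. No gene of the 8 passed limma's test between them, and 0.0791% of all tested genes passed. At an unadjusted p under 0.05 there were 0 of the 8, and the share of all tested genes was not counted. Mmp3 read 40.5, 44 and 53.9 with BaP and 40.3, 43.1 and 45.5 with MCA. The groups overlapped, and the difference of 0.09 had 95% limits of -0.41 to 0.59. The differences were 0.23 for Mmp13 (-0.30 to 0.77), 0.20 for Mmp9 (-0.13 to 0.53) and 0.19 for Timp1 (-0.13 to 0.52). These limits exclude differences as large as those of Mmp3, Mmp13 and Mmp9 at the literature doses, but not smaller ones.

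**Figure D5:**
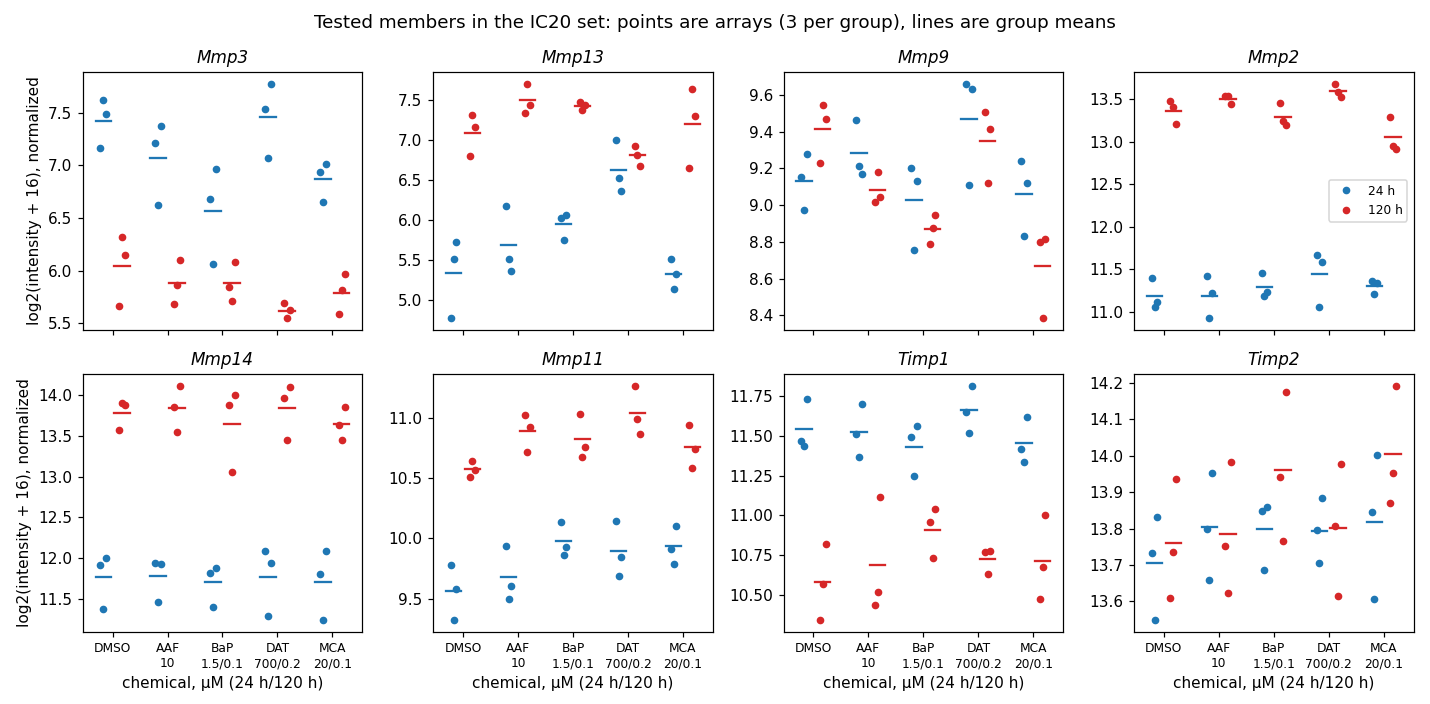
Normalized log2(intensity + 16) of the 8 tested genes on every array of the IC20 set (points, 3 arrays per group; lines are group means) in DMSO and with each chemical at 24 h (blue) and 120 h (red). The 24 h and 120 h arrays of Mmp2 and Mmp14 separate with every chemical, while the chemicals lie near DMSO of the same time for most genes.

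Against DMSO, the IC20 doses moved Mmp13 with DAT at 24 h and Mmp9 with MCA at 120 h, by their representative probe sets. Mmp13 read 85.5, 73.9 and 51.4 with 700 µM DAT at 24 h against 9.18, 26.6 and 30.6 in DMSO. The groups did not overlap, and the rise was 1.30 ± 0.26 (adjusted p = 0.00189; 7.85% of all tested genes passed with this dose). It was lost in a fit of the compared groups alone (0.0615), and it was 1.79 with a pseudocount of 1 and 0.73 with 64. Mmp9 read 490.8, 327.4 and 455.4 with 0.1 µM MCA at 120 h against 632.7, 746.8 and 718.3 in DMSO, again without overlap. The fall was -0.75 ± 0.16 (adjusted p = 0.00682; 2.47% of all tested genes passed). It was lost without the second DMSO array (0.0524) or the second MCA array (0.07), under median scaling (0.393), in a fit of the compared groups alone (0.131) and by the second probe set (-0.71, 0.156).

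In the other 6 comparisons of this set, limma called none of the 8 genes. The shares of all tested genes that passed were 0.0237% with AAF, 2.4% with BaP and 1.31% with MCA at 24 h, and 0.562% with AAF, 1.44% with BaP and 0% with DAT at 120 h. The numbers of the 8 with an unadjusted p under 0.05 were 0, 3 and 2 at 24 h and 2, 2 and 1 at 120 h. The shares above are for the adjusted p. No share of all tested genes was counted at the unadjusted level, so these numbers have no background. Mmp3 read 70.8, 57.4 and 87.4 with 1.5 µM BaP at 24 h, below all 3 DMSO arrays (99.8, 154.1 and 128.8). The difference was -0.86 ± 0.24 (adjusted p = 0.061), and it passed without the third BaP array (0.0361), with a pseudocount of 64 (0.0368) and on the deposited values (0.0357). Timp2 passed with 0.1 µM MCA at 120 h by its probe set 1454677_at (0.34, adjusted p = 0.0297), where its representative gave 0.24 (0.5). Over all chemicals, Mmp14 differed from DMSO by -0.06 to 0.02 at 24 h and by -0.14 to 0.05 at 120 h, and Timp1 by -0.11 to 0.12 and by 0.11 to 0.33. Mmp9 with 0.1 µM BaP at 120 h differed by -0.54 ± 0.16 (adjusted p = 0.108). At 120 h, where DAT and MCA were given at lower doses than in the literature-dose set, Mmp3 differed from DMSO by -0.42 with 0.2 µM DAT (95% limits -0.92 to 0.07) and by -0.26 with 0.1 µM MCA (-0.75 to 0.24). The response to 10 µM AAF, the 1 chemical given at the same IC20 dose at both times, differed between the times for 0 of the 8 genes and for 0% of all tested genes, with 1 of the 8 at an unadjusted p under 0.05.

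Arrays with the same replicate number deviated together in most comparisons of the IC20 set, and a fit with that number as a block called more of its small differences. At 24 h it called Mmp3 (-0.86, adjusted p = 0.00733) and Mmp11 (0.42, 0.00441) with BaP, Mmp11 with MCA (0.37, 0.0135), and Mmp2, Mmp9 and Mmp11 with DAT (0.25, 0.33 and 0.33; 0.0152, 0.0463 and 0.0112). At 120 h it called Mmp11 with AAF (0.31, 0.0364) and Mmp2 and Timp2 with MCA (-0.31 and 0.24; 0.00664 and 0.00292). Without the block the adjusted limma p of these 9 values ran from 0.061 to 0.529. The share of all tested genes called with the block was not counted, so these calls have no background.

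Mmp10 and Timp3 gave no level that could be set against the background. Mmp10, the second stromelysin, read 12.8 to 42.2 over the literature-dose set (median 28.2) and 2.55 to 82 over the IC20 set. Timp3, an inhibitor that stays bound to the matrix, read 8.59 to 20.5 and 2.98 to 52.8, and its 3 other probe sets were below the median on all 60 arrays too. Mmp10 shares the AP-1 and TATAAA letters of Mmp3 and Mmp13 in its window. Its probe set did not rise above the median in any group, so its responses could not be read. A link between these letters and the responses of Mmp3 and Mmp13 was not tested.

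The order of the genes over the 20 group means, each set centred on its own mean, is given as a description, since the groups share controls, arrays and time. Mmp2 was most like Mmp14 of all tested genes (Pearson r = 0.994), followed by Mrc2 and Pbxip1 (both 0.991). Mmp14 was likewise nearest to Mmp2, followed by Kdm7a and Slc5a3 (both 0.992). Timp1 ran opposite to both (-0.951 with Mmp2 and -0.956 with Mmp14), and its nearest genes were Mastl (0.987), Sass6 and Oip5 (both 0.982). Mmp3 was nearest to Wdr61 and Adam8 (both 0.959), and Gch1 followed at 0.935. Mmp13 was nearest to Mast4 (0.963), Riok3 (0.96) and Trappc6b (0.957). Mmp9 was nearest to Lum (0.961), Csgalnact1 (0.926) and Errfi1 (0.916), and Mmp11 to Tmem150a (0.988). Timp2 had no near neighbour, with Aopep at 0.798. Mmp3 and Mmp13, which lie in the same run on chromosome 9, correlated at 0.498 over both sets, at 0.761 in the literature-dose set and at -0.762 in the IC20 set.

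Other proteases and inhibitors of the matrix give the setting. Of 18 tested ADAM and ADAMTS genes, which encode membrane-bound and secreted relatives of the metalloproteases, 10 rose and 2 fell with time in DMSO of the literature-dose set, and 8 rose and 1 fell in the IC20 set. Of all tested genes, 57.7% and 40.2% passed in these comparisons (29.3% and 17.8% higher, 28.4% and 22.4% lower). The 12 and 9 of 18 are near the shares of both directions together. By direction, more rose and fewer fell than those shares, and no test of the list was made. Of 7 tested cathepsins, lysosomal proteases, 7 and 6 rose and 0 fell. Of 7 tested genes of the plasmin system, which can activate metalloprotease precursors, 3 and 1 rose and 1 and 1 fell. Of 6 tested inhibitors of other kinds, 3 and 3 rose and 1 and 0 fell, and of 4 other metalloproteases 1 and 1 rose. The median differences of these lists in the literature-dose set were 0.316, 0.633, -0.0904, 0.476 and -0.0855, against 0.00171 over all tested genes.

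Reck, a membrane-anchored inhibitor of metalloproteases, rose with time by 1.20 and 1.16 in the 2 sets, and Plat, the tissue plasminogen activator, by 1.48 and 1.28. Adam23, a membrane protein of the ADAM family, rose with time by 2.08 and 1.27. Adamts12 rose with time by 1.29 and 1.34 and fell with BaP (-1.97 ± 0.11, adjusted p = 1.19e-13) and MCA (-0.88 ± 0.11, adjusted p = 1.76e-07) at the literature doses at 120 h. Unlike Mmp13 and Mmp9 it was below DMSO with MCA as well. Adamts1 and Adamts4, which cut proteoglycans, both rose with time, by 1.53 and 1.20 and by 0.97 and 1.19. With 0.5 µM BaP at 24 h Adamts1 fell by 1.14, and Adamts4 differed by 0.11 (adjusted p = 0.482). With 0.5 µM BaP at 120 h Adamts1 fell by 0.37 and Adamts4 rose by 0.85. With 2 µM MCA at 120 h Adamts1 fell by 0.76, and Adamts4 differed by -0.03 (adjusted p = 0.823). With 0.1 µM MCA at 120 h Adamts4 rose by 1.36, and Adamts1 differed by -0.11 (adjusted p = 0.871). With 700 µM DAT at 24 h Adamts1 fell by 1.13 and Adamts4 rose by 1.05. Of the 18 ADAM and ADAMTS genes, 4 were higher and 4 lower with 2 µM MCA at 120 h, where 39.1% of all tested genes passed, and of the 7 cathepsins 0 were higher and 1 was lower.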

How the data were processed

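RNA of 60 samples was hybridized to single-colour Affymetrix arrays, 3 per group. The deposited values are intensities per probe set on a linear scale, made with the GCOS software per the submitters' processing notes; no version is given. Trimmed means of 152.9 to 187.56 in 1 set and 500 in the other show that the authors scaled the 2 sets differently, so levels were tested within a set. The number of arrays limits the precision.

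Of 45101 probe sets, 34958 had 1 gene symbol, 932 several and 9211 none in the platform table, and 204 symbols were kept in their older form. The brightest probe set stood for a gene. Intensities were quantile-normalized within each set and taken as log2(intensity + 16). Each set of 30 arrays was fitted with limma 3.58.1 in R 4.3.3 (10 group means, 20 residual degrees of freedom, empirical Bayes with a mean-variance trend, two-sided), and p-values were adjusted by Benjamini-Hochberg over 12637 genes in each of 25 comparisons. A single fit of all 60 arrays was kept as an alternative, because the sets differ in spread. In simulated data on 12637 genes, the fit recovered 98.5% of 2-fold changes for MCA at 120 h in the literature-dose set and 73.1% in the IC20 set. The simulation drew independent normal noise with each gene's own spread and changed a small share of the genes. It held no link between replicate numbers and no outlying arrays, so the rates apply only under those assumptions.

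All 10 genes of the family could be named in each comparison; values are given for those that passed or came near, ranges for most of the others, and no difference for the untested Mmp10 and Timp3. Genes of the other lists are named where they passed in both DMSO time comparisons with a log2 change of at least 1, or against DMSO in at least 3 treatment comparisons with a change of at least 1 in 1 of them. The members and lists were chosen with earlier results of these data known. Adam8 belongs to such a list and is named by its likeness to Mmp3.

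Replicate numbers come from the sample titles. The deviations of same-numbered arrays correlated above 0.1 for all 3 numbers in 7 of 10 literature-dose and 8 of 10 IC20 comparisons (range -0.314 to 0.685 and 0.063 to 0.537), so the fit with the number as a block is given beside results whose call it changes there.

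Alternatives were pseudocounts of 1 and 64, other scalings, no filter, other fits, other probe sets and leaving out each array.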

Additional observations from a re-analysis of the deposited data

Results flagged for a closer look

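For 12 pairs of gene and chemical in the literature-dose set, the response at 120 h differed from that at 24 h by limma's test of the difference itself. The differences (120 h response minus 24 h response, log2) were 4.71 for Mmp3 with MCA and 3.41 with DAT, and 2.37, 1.36 and -0.997 for Mmp13 with MCA, DAT and BaP. They were -0.81 for Mmp9 with BaP and 0.55 with DAT, -0.72 for Mmp11 with MCA, and -0.43 and -0.53 for Mmp2 with BaP and MCA. For Timp1 they were 0.43 with BaP and 0.62 with MCA. The calls on Mmp2 with BaP (adjusted p = 0.037) and Timp1 with BaP (adjusted p = 0.0414) were ended by leaving out 1 array at a time in most fits, with adjusted p up to 0.123 and 0.145. By its other probe set Mmp2 gave -0.31 with BaP (0.144). Mmp14 passed by its probe set 1440920_at, with -0.59 for BaP (0.0153) and -0.43 for MCA (0.0383), but not by 1416572_at (0.0633 and 0.221). The call on Mmp13 with BaP was lost with a pseudocount of 1 (0.135) and in a single fit of all 60 arrays (0.0729), and that on Mmp9 with DAT on the deposited values (0.0612) and in the single fit (0.133). Mmp13 was below the array median on every 24 h array of this set, so a fall with BaP had little room to show at that time. The 24 h and 120 h responses rest on separate DMSO groups of 3 arrays each. Groups of 3 arrays are too small for the check on single outlying samples, so none was made.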

How the results depend on the processing

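Of the 200 gene and comparison values, 185 kept their direction and their side of the threshold in a single fit of all 60 arrays and 184 in the fit with the replicate block. The block ended no call and added 16, and the share of all tested genes that it called was not counted. Its values stand in the report where the numbers pair the arrays. Elsewhere it called, with 0.1 µM BaP at 120 h in the IC20 set, Mmp9 (adjusted p = 0.00425), Timp1 (0.0176) and Timp2 (0.015), and, with 0.2 µM DAT, Mmp11 (0.0195). The 1 reversal was Timp2 over time in DMSO of the IC20 set, -0.58 under median scaling, which moved the median of all genes there by -0.349 against -0.0534.

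Of the 32 values at 24 h in the literature-dose set, 2 were called; a single fit gave 1, the compared groups alone 1, the replicate block 3, the mean of all probe sets 3, and leaving out 1 array 1 to 2. The 19 calls at 120 h became 12 in a single fit and 20 with the mean of all probe sets (17 to 19 without 1 array). In the IC20 set the 1 call at 24 h became 2 with a pseudocount of 64, 2 on the deposited values, 3 in a single fit, 0 with the compared groups alone, 2 without the trend, 7 with the replicate block and 1 to 2 without 1 array. The 1 call at 120 h became 0 under median scaling, 2 in a single fit, 0 with the compared groups alone, 8 with the replicate block and 0 to 1 without 1 array. The causes were not tested. Counts over time were 6 to 8 and 6 to 7, and those of the response differences 8 to 12 (10 to 13 without 1 array). Low signal limits Mmp3 and Mmp13, whose sizes move with the pseudocount.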
